A study of Mus musculus with 6 samples.

Results

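The proteasome subunit genes were examined in mouse 2-cell embryos grown from delipidated and control zygotes. Members were the protein-coding genes whose symbol begins with Psm, a letter from a to e and a digit, pseudogenes left out. This gave 45 of the 48967 genes with summed counts. Of these, 43 were placed in classes by function, namely 14 of the constitutive core, 3 of the immunoproteasome, 2 tissue-specific core genes, 17 of the regulatory particle, 3 chaperones and 4 activators. The other 2 carry a matching symbol only: Psmc3ip encodes a cofactor of meiotic recombination, and Psme2b is a copy of Psme2 in a single exonic part.

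The study asked what removing lipid droplets from the zygote does to the embryo, and RNA was sequenced from 3 control and 3 delipidated libraries, each a pool of 3 embryos. All embryos were F1 (C57Bl/10 X CBA/H), genotype wt, and were kept in fatty acid-free KSOM from 0.5 to 2.0 dpc and labelled day 2. Delipidated zygotes were treated with cytochalasin B at 50 µg/mL, spun at 4200 g and then at 9500 g for 10 min each, and the lipid droplets were drawn off with a pipette. The labels do not say whether control zygotes were spun or exposed to cytochalasin B, so the lipid removal and its handling cannot be told apart. Embryos were drawn at random from a common pool of each group, so p-values measure the spread between pools of embryos and not between females. Summed gene counts ran from 12164963 to 16165958 (median 12980787) in control and from 14683741 to 20059460 (median 16332103) in delipidated libraries. Genes with at least 1 count numbered 22855, 22437 and 20582 in control and 17091, 19408 and 20158 in delipidated libraries, fewer in every delipidated library, and the part of this in the low counts given for single genes was not tested.

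The proteasome degrades proteins tagged with ubiquitin. Its core is a barrel of stacked rings, in which the alpha subunits form the gate and the beta subunits hold the catalytic sites, while the regulatory particle binds the tagged protein, removes the ubiquitin, unfolds the chain with a ring of ATPases and feeds it into the core. In the early mouse embryo the proteasome clears maternal proteins while the embryonic genome takes over from the stored oocyte transcripts.

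The labelled stage was checked against marker genes. All 10 maternal oocyte markers and all 12 markers of 2-cell genome activation had enough counts to be tested. Of 12 cumulus and granulosa markers 4 were tested, and the summed level of all 12 was 20.3, 28.5 and 82.3 CPM (counts scaled to the same library total) in control and 11.3, 33.2 and 18.4 CPM in delipidated libraries. Amhr2 was the most abundant of them over the 6 libraries, Foxl2 and Ptx3 were at 0 in all 6, and 653 counts of Cyp11a1, which was not tested, fell in Control 3. Of 12 leukocyte markers 5 were tested, with sums over all 12 of 34.5, 16.5 and 30.7 CPM in control and 11.5, 19.6 and 22.6 CPM in delipidated libraries, and H2-Aa was the most abundant.

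Of the 45 members, 40 had enough counts to be tested, and none was called different between delipidated and control embryos. A call required an adjusted p-value below 0.05 together with a log2 fold change larger than 1 in size. Across all 16020 genes tested, edgeR's quasi-likelihood test called 0 genes higher and 0 lower (0% each), with a smallest adjusted p-value of 0.0721. DESeq2 without a filter called 9 genes higher and 40 lower, and no proteasome gene among them. At an unadjusted p-value under 0.05 edgeR had 1 member higher (1.15% of all genes tested) and 1 lower (1.74%), Psme3 and Psma1. Among the 40 tested members, CPM values did not overlap between the groups for 1 that was higher (3.81% of all genes), again Psme3, and for 2 that were lower (5.05%), Psma1 and Psmb4. Log2 fold changes, delipidated minus control, were positive in 20 tested members and negative in 20, with a median of 0.0098 beside -0.00073 over all genes tested. The adjusted p-value from edgeR was 1 for every tested member. RNA was measured per pool and scaled to the library total, so each value is a gene's share of the RNA and not its amount per embryo. Fewer cells expressing a gene and less of its RNA per cell cannot be told apart in any of these values.

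**Figure D1:**
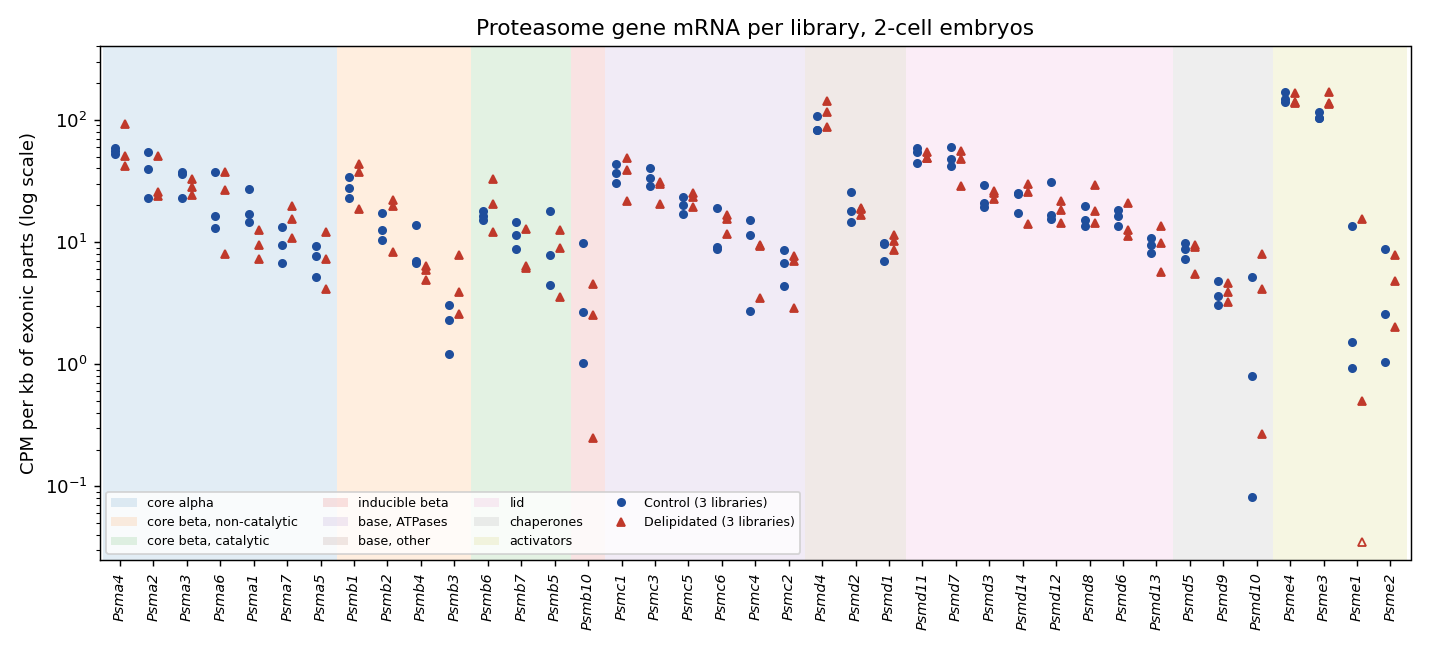
Level of each tested proteasome gene in each library, in CPM per kb of summed exonic parts on a log scale, with circles for 3 control and triangles for 3 delipidated libraries and shading for the class. The groups lie over each other for most genes, Psme4 and Psme3 stand at the top with 151 and 127 CPM per kb over the 6 libraries, and the open triangle marks the library with 0 counts of Psme1, Delipidated 1.

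The alpha and beta genes of the constitutive core were all tested, 14 of 14. Their log2 fold changes were positive in 8 and negative in 6, with a median of 0.09 and a range from -0.997 to 1.11. Summed over the class, core mRNA was 509, 650 and 537 CPM in control and 624, 541 and 506 CPM in delipidated libraries. The means of 565 ± 74.6 and 557 ± 60.3 CPM (SD, n = 3 each) lay closer together than either spread.

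Among the alpha genes, Psma1, on chromosome 7 from 114264606 to 114276118 (mm10), encodes a structural subunit of the outer ring. It had 43.2, 79.5 and 49.8 CPM in control and 27.7, 37.3 and 21.5 CPM in delipidated libraries. Every delipidated library lay below every control library, and Control 2 stood well above the others. The log2 fold change was -0.997 (SE 0.35), with an unadjusted p of 0.0163 and an adjusted p of 1 in edgeR. Without Control 2 it was -0.69 with an unadjusted edgeR p of 0.0982, and on the exonic part with the most counts -0.91 with a p of 0.2. Psma7, which encodes another alpha subunit, had 20.8, 28.8 and 41.0 CPM in control and 60.3, 33.2 and 47.8 CPM in delipidated libraries. Control 3 reached into the delipidated range, and the log2 fold change of 0.64 (SE 0.37) had an unadjusted edgeR p of 0.108 and was 0.42 without Delipidated 1.

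Psma4, an alpha gene, was the highest of the core per length at 58.6 CPM per kb over the 6 libraries. It measured 124, 132 and 139 CPM in control and 218, 121 and 98.4 CPM in delipidated libraries. Delipidated 1 alone was above the control libraries and both other delipidated libraries were below them; the log2 fold change of 0.15 (SE 0.29) became -0.26 without Delipidated 1. The remaining alpha genes, Psma2, Psma3, Psma5 and Psma6, had log2 fold changes between -0.23 and 0.11.

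Of the beta subunits without a catalytic site, Psmb4 had 13.2, 26.8 and 13.6 CPM in control and 12.3, 9.46 and 11.6 CPM in delipidated libraries. The groups did not overlap, but Control 1 and Delipidated 1 were close together and Control 2 carried most of the distance between the means. The log2 fold change was -0.68 (SE 0.46), and -0.27 without Control 2, with unadjusted edgeR p-values of 0.168 and 0.613. Psmb3 had the lowest level of the core per length, 3.47 CPM per kb. It stood at 2.78, 7.08 and 5.25 CPM in control and 8.99, 5.96 and 17.9 CPM in delipidated libraries. Delipidated 2 lay below Control 2, so the groups overlapped, and the log2 fold change of 1.11 (SE 0.63) was the most positive of all tested members with an unadjusted edgeR p of 0.106. Without Delipidated 3 it was 0.56. Psmb1 and Psmb2 had log2 fold changes of 0.23 and 0.31.

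The catalytic genes of the constitutive core are Psmb5, Psmb6 and Psmb7, whose products cut after hydrophobic, acidic and basic residues, in that order. Psmb5 measured 3.38, 13.7 and 5.93 CPM in control and 9.53, 6.76 and 2.68 CPM in delipidated libraries. Both groups ran from a low library to a high one and overlapped, and the log2 fold change of -0.28 (SE 0.71) became 0.44 without Control 2 and 0.083 without Delipidated 3. Its value rests on 4 exonic parts, because the gene shares an identifier with an overlapping neighbour and 1 shared part with 190 counts was left out.

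Psmb6 had 30.8, 33.3 and 28.2 CPM in control and 22.4, 38.4 and 62.0 CPM in delipidated libraries. Control libraries were close together and delipidated libraries lay on both sides of them, with a log2 fold change of 0.41 (SE 0.39) that became -0.020 without Delipidated 3. Psmb7 had 30.1, 39.0 and 50.1 CPM in control and 44.0, 20.9 and 21.7 CPM in delipidated libraries. Delipidated 2 and Delipidated 3 were below all controls while Delipidated 1 was within them, and the log2 fold change was -0.46 (SE 0.39), from -0.90 without Delipidated 1 to -0.26 without Control 3. Per length the catalytic genes stood at 9.17 (Psmb5), 19.2 (Psmb6) and 10.0 (Psmb7) CPM per kb, and 20.4% of the counts of Psmb7 fell on parts that lie opposite an exon of another gene.

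In the immunoproteasome, interferon-inducible subunits take the place of the constitutive catalytic ones: Psmb8 that of Psmb5, Psmb9 that of Psmb6 and Psmb10 that of Psmb7. Psmb8, on chromosome 17 from 34197721 to 34201454 (mm10), had 0 counts in each of its 12 exonic parts in all 6 libraries. A count of 0 allows up to 3 counts, or 0.253, 0.181 and 0.228 CPM in control and 0.148, 0.184 and 0.212 CPM in delipidated libraries, for counting error only. Psmb9 had 9, 0 and 3 counts in control and 0, 0 and 0 in delipidated libraries. These counts fell on 3 parts in Control 1 and on 1 part in Control 3 that lies opposite an exon of another gene. Neither Psmb8 nor Psmb9 had enough counts to be tested.

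Psmb10 was the only inducible catalytic gene tested, with 16.7, 4.60 and 1.75 CPM in control and 7.80, 4.30 and 0.424 CPM in delipidated libraries. Both groups ran from a high library to a low one and overlapped, with Control 1 above every delipidated library and Delipidated 3 below every control library. The log2 fold change was -0.87 (SE 1.01), with an unadjusted edgeR p of 0.407, and became 0.40 without Control 1. Counts covered 15, 15 and 6 of its 22 parts in control and 9, 12 and 1 in delipidated libraries.

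The share of the inducible gene in each catalytic pair was computed on CPM per kb. For Psmb10 with Psmb7 it was 52.7%, 19.1% and 6.54% in control and 26.2%, 29.2% and 3.77% in delipidated libraries. The spread within each group exceeded the difference of the means of -6.36 percentage points (26.1 ± 23.8% and 19.8 ± 13.9%, SD, n = 3 each). The two-sided exact permutation test gave p = 0.8 and a BH-adjusted p of 0.8 over 2 tests, where 0.1 is the smallest p it allows. Without Control 1 that difference was 6.92 percentage points, and without Delipidated 3 it was 1.63. For Psmb9 with Psmb6 the share was 1.25%, 0% and 0.412% in control and 0% in all delipidated libraries (exact permutation p = 0.4, BH-adjusted p = 0.8). The share of Psmb8 was 0% throughout and could not be tested.

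The tissue-specific core genes were close to the floor. Psma8, the alpha subunit of spermatocytes, had 7 counts in Delipidated 3 and 0 in the other libraries. Psmb11, the catalytic subunit of thymic cortical epithelium, had 2, 0 and 0 counts in control and 39, 36 and 3 in delipidated libraries, all in its only exonic part. Its groups did not overlap, though Control 1 and Delipidated 3 differed by a single count. It did not pass the filter on low counts; without a filter the unadjusted p was 0.0696 in edgeR (log2 fold change 4.56, SE 2.51) and 0.0168 in DESeq2, where the adjusted p was 0.524. It passed the filter in 4 of the fits that left out 1 library. In each it passed only through Delipidated 1 and Delipidated 2, where it was high, so the p-values of these fits decide nothing. Without Control 1 the log2 fold change was 7.55 with an unadjusted edgeR p of 0.0297, but the remaining control libraries had 0 counts. That fold therefore has no measured control level. Without Delipidated 3 the values were 5.08 and 0.0387, and the unadjusted edgeR p was 0.122 without Control 2 and 0.12 without Control 3.

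The 17 genes of the regulatory particle were all tested. Positive log2 fold changes were found in 8 and negative ones in 9, with a median of -0.022 and a range from -0.40 to 0.34, and no member had an unadjusted edgeR p under 0.05 or separated groups. The class summed to 1196, 1670 and 1461 CPM in control and 1721, 1501 and 1229 CPM in delipidated libraries. Each group held a library near the top and one near the bottom, and the means were 1442 ± 237 and 1483 ± 246 CPM (SD, n = 3 each).

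The base of the particle carries the ATPase ring, encoded by Psmc1 to Psmc6, and the ubiquitin-binding subunits. Psmc3, an ATPase gene, had 74.7, 105 and 87.7 CPM in control and 78.2, 81.1 and 53.1 CPM in delipidated libraries. Control 2 was highest and Delipidated 3 lowest, with overlap between the groups and a log2 fold change of -0.33 (SE 0.27, unadjusted edgeR p 0.247) that was -0.20 without Control 2 and -0.16 without Delipidated 3. Psmc2, the ATPase gene with the lowest level of the regulatory particle on summed length (6.21 CPM per kb), had 21.9, 43.1 and 34.1 CPM in control and 38.6, 35.5 and 14.5 CPM in delipidated libraries. Its lowest library was again Delipidated 3, and the log2 fold change of -0.16 (SE 0.43) became 0.080 without Control 2, 0.16 without Delipidated 3 and 0.36 when the exonic part with the most counts replaced the sum. Over the 6 ATPase genes log2 fold changes ran from -0.40 (Psmc4) to 0.24 (Psmc6).

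Psmd4, which encodes a ubiquitin receptor, was the highest gene of the regulatory particle at 103 CPM per kb, above 97.5% of all tested genes on that scale. It had 233, 301 and 233 CPM in control and 401, 323 and 246 CPM in delipidated libraries. Delipidated 1 and Delipidated 2 exceeded all control libraries and Delipidated 3 lay between them, with a log2 fold change of 0.34 (SE 0.22, unadjusted edgeR p 0.155) that was 0.16 without Delipidated 1 and 0.14 on the part with the most counts. The large scaffold subunits of the base, Psmd1 and Psmd2, had log2 fold changes of 0.18 and -0.10. For Psmd1, 2053 counts on 2 parts shared with another gene were left out.

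The lid removes ubiquitin through Psmd14 and its partner Psmd7. Psmd7 had 94.2, 136 and 108 CPM in control and 125, 108 and 65.1 CPM in delipidated libraries. Delipidated 3 was lowest and the other delipidated libraries fell within the control range, so that the log2 fold change of -0.18 (SE 0.28) became 0.046 without Delipidated 3. Psmd8, a structural subunit, had 41.1, 60.4 and 46.5 CPM in control and 88.9, 43.4 and 55.3 CPM in delipidated libraries. Only Delipidated 1 exceeded the control libraries, and the log2 fold change was 0.34 (SE 0.33, unadjusted edgeR p 0.323) and 0.00016 without that library. Psmd14 itself averaged 63.4 ± 12.8 CPM in control and 65.1 ± 22.8 CPM in delipidated embryos (SD, n = 3 each). Psmd11, which clamps lid and core together, had the highest level of the lid on summed length, with 52.5 CPM per kb in control and 51.0 in delipidated embryos, but stood below Psmd7 (24.6 and 29.4 CPM per kb over the 6 libraries) with 150 bases added for each part.

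Chaperones that help to assemble the base are encoded by Psmd5, Psmd9 and Psmd10. Psmd5 had 63.4, 70.6 and 52.8 CPM in control and 39.8, 65.5 and 68.1 CPM in delipidated libraries. Delipidated 1 was lowest, and the log2 fold change of -0.11 (SE 0.30) became 0.10 without it. Psmd10 had 1.18, 0.121 and 7.60 CPM in control and 0.395, 6.08 and 11.7 CPM in delipidated libraries. Low and high libraries occurred in both groups, and the log2 fold change of 1.03 carried an SE of 1.30. With 1 library left out it ran from 0.13 (without Delipidated 3) to 3.23 (without Control 3). Psmd9 had a log2 fold change of 0.036 (SE 0.36).

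The activators open the gate of the core without the regulatory particle. Psme3, on chromosome 11 from 101316213 to 101323537 (mm10), encodes a nuclear activator that acts without ATP. It measured 344, 307 and 304 CPM in control and 394, 402 and 498 CPM in delipidated libraries. Every delipidated library was above every control library, and Delipidated 3 was highest. Means were 318 ± 22.2 and 431 ± 57.5 CPM (SD, n = 3 each), a log2 fold change of 0.44 (SE 0.18) with an unadjusted p of 0.0328 and an adjusted p of 1 in edgeR. Without Delipidated 3 the log2 fold change was 0.32 and the unadjusted edgeR p 0.115, without Control 2 they were 0.41 and 0.0808, without Control 3 they were 0.40 and 0.0953, and without Delipidated 2 they were 0.49 and 0.0544. On the exonic part with the most counts alone it was 0.14, with an unadjusted edgeR p of 0.594.

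Psme4 encodes a large nuclear activator known for its part in the breakdown of acetylated histones. It had 1421, 1184 and 1245 CPM in control and 1169, 1163 and 1395 CPM in delipidated libraries, the highest level per length of all members (151 CPM per kb, above 98.6% of tested genes). The groups overlapped almost wholly, and the log2 fold change of -0.047 (SE 0.15) became 0.044 without Control 1. Psme3 followed at 127 CPM per kb, and in delipidated embryos the genes stood at 148 (Psme4) and 146 (Psme3) CPM per kb.

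Psme1 and Psme2 encode the interferon-inducible activator of the cytosol and were far less abundant per length, at 5.29 and 4.50 CPM per kb. Psme1 had 40, 492 and 27 counts in control and 0, 18 and 480 in delipidated libraries. In each group 1 library held most of the counts, which covered 25 of 43 parts in Control 2 and 21 in Delipidated 3. Psme2 had 54, 257 and 24 counts in control and 172, 223 and 50 in delipidated libraries. Its high libraries were not those of Psme1, apart from Control 2, and the log2 fold changes of -0.016 (SE 1.50) and 0.23 (SE 0.80) had wide errors. Together these genes summed to 19.0 ± 22.8 CPM in control and 20.2 ± 15.2 CPM in delipidated embryos, beside 1602 ± 144 and 1673 ± 190 CPM for Psme3 and Psme4 (SD, n = 3 each).

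**Figure D2:**
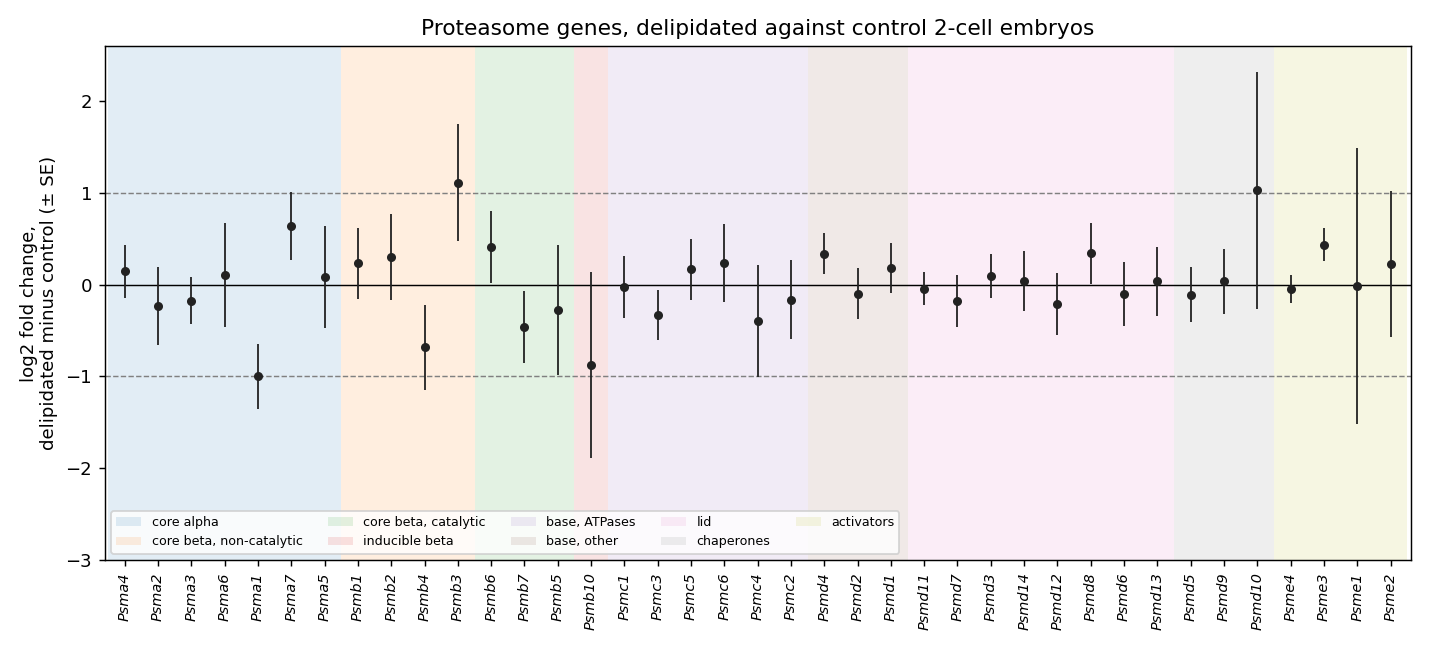
Log2 fold change of each tested proteasome gene, delipidated minus control, from edgeR, with bars of 1 SE, shading for the class and dashed lines at the threshold of 1 in either direction. Values range from -0.997 (Psma1) to 1.11 (Psmb3), and the bars are widest for Psme1, Psmd10 and Psmb10.

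Per length, the median level was 14.9 CPM per kb over the core genes and 19.6 over the regulatory particle, beside 3.47 over all tested genes. Subunits that enter the particle in equal numbers differed widely on this scale, from 3.47 (Psmb3) to 58.6 CPM per kb (Psma4) in the core and from 6.21 (Psmc2) to 103 CPM per kb (Psmd4) in the regulatory particle. Within the core, the neighbours Psma2 (36.1), Psmb1 (30.8) and Psma3 (30.3 CPM per kb) differed by less than the spread between libraries. The order of the 39 tested members was much the same with 150 bases added for each part (Spearman's rho 0.976 across genes) and less so on the part with the most counts (rho 0.787), as a description, since genes are not independent replicates. On that part Psma3 and not Psma4 led the core, at 231 CPM per kb, while Psme4 and Psmd4 still led the activators and the regulatory particle. Psme3 moved from position 2 of the 39 to position 20 on that part, at 41.4 CPM per kb beside 973 for Psme4. The lowest gene of the regulatory particle was Psmc4 with 150 bases added for each part (3.22 CPM per kb) and Psmc5 on the part with the most counts (18.3), while Psmb3 was the lowest of the core on all 3 scales.

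The libraries of a group differed among themselves. Control 2 was the highest library for 15 of the 39 tested members in classes (38.5%), against 17.1% of all genes tested, and for 7 of 17 genes of the regulatory particle (41.2%). Delipidated 3 was the lowest for 14 of 39 (35.9%), against 17.8% of all genes, and for 8 of 17 genes of the regulatory particle (47.1%). Control 1 was the lowest for another 7 of those 17 (41.2%), against 12.9% of all genes. The summed level of the 2-cell activation markers was 455, 182 and 442 CPM in control and 310, 365 and 484 CPM in delipidated libraries, lowest in Control 2 and highest in Delipidated 3. Maternal markers summed to 1051, 777 and 1100 CPM in control and 925, 1076 and 1354 CPM in delipidated libraries, with the same libraries at the ends. The activators summed to 1772, 1536 and 1553 CPM in control and 1572, 1579 and 1930 CPM in delipidated libraries, and were highest in Control 1 and Delipidated 3. The part of these marker levels in the proteasome values was not tested.

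Genes that work with the proteasome but carry other symbols were read from lists. Of the 42 listed genes 41 were tested and none was called by edgeR. By edgeR 0 higher (1.15% of all genes tested) and 1 lower (1.74%) had an unadjusted p under 0.05, while DESeq2 called none and had 0 higher (1.42% of all genes) and 2 lower (2.93%) at that level. The remaining regulatory subunits, the ubiquitin receptor Adrm1 and the small lid subunit Sem1, had log2 fold changes of -0.16 (SE 0.22) and -0.51 (SE 0.38). Among assembly chaperones of the core, Pomp, which completes the beta ring, had 0.34 (SE 0.42), and Psmg2, which helps to build the alpha ring, had -1.97 (SE 1.79) at 2.22 ± 0.871 CPM in control and 0.565 ± 0.978 CPM in delipidated embryos (SD, n = 3 each). Of 11 regulators and shuttles bound to the proteasome, 7 had positive and 4 negative values, and the shuttle gene Ubqln4 had 0.33 (SE 0.42). Of 11 ubiquitin and segregase genes, 4 had positive and 7 negative values, with -0.94 (SE 0.53) for Ufd1, a cofactor of the segregase Vcp, and 0.43 (SE 0.37) for Faf2, which recruits Vcp to membranes and lipid droplets. Leaving out 1 library moved Ufd1 between -1.43 (without Delipidated 3) and -0.39 (without Control 3) and Faf2 between 0.21 (without Control 1) and 1.02 (without Control 2), and Ufd1 was -0.35 on the part with the most counts. In the same way Adrm1 ran from -0.35 to -0.016, Sem1 from -0.78 to -0.30, Pomp from -0.024 to 0.64, Psmg2 from -8.12 to -1.38 and Ubqln4 from 0.098 to 0.59. Psmg2 had 32, 20 and 36 counts in control and 0, 0 and 24 in delipidated libraries. In the fit without Delipidated 3 its remaining delipidated libraries had 0 counts, so its fold there has no measured delipidated level.

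Transcription of the subunit genes is raised by Nfe2l1 when proteasome activity falls short. Nfe2l1 mRNA was 285, 329 and 282 CPM in control and 285, 288 and 289 CPM in delipidated libraries. Control 2 was highest and the remaining 5 libraries lay within a narrow band, with a log2 fold change of -0.054 (SE 0.18). Ngly1, which trims sugars from the Nfe2l1 precursor, had a log2 fold change of 0.53 (SE 0.43), and Bach1, a repressor that binds related sites, had -0.35 (SE 0.32). With 1 library left out Ngly1 ran from 0.28 (without Control 2) to 1.07 (without Control 1) and Bach1 from -0.61 (without Delipidated 2) to -0.12 (without Delipidated 3).

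Irf1, an interferon-regulated factor that switches on immunoproteasome genes, was the member of the antigen presentation list with an unadjusted p under 0.05. It had 64.9, 39.4 and 52.0 CPM in control and 21.8, 22.8 and 36.4 CPM in delipidated libraries. All delipidated libraries were below all control libraries, though Control 2 and Delipidated 3 were close. The log2 fold change was -0.95 (SE 0.35), with an unadjusted p of 0.0196 and an adjusted p of 1 in edgeR, and the unadjusted edgeR p was 0.0919 without Control 1, 0.0542 without Delipidated 1 and 0.0633 without Delipidated 2. On the exonic part of Irf1 with the most counts the log2 fold change was -0.37, with an unadjusted edgeR p of 0.394. The 7 genes of the list summed to 84.0, 51.6 and 72.4 CPM in control and 34.7, 32.6 and 50.1 CPM in delipidated libraries, and most of each sum was Irf1. The sums did not overlap and were not tested, while Tap1, Tap2 and Tapbp of the peptide loading machinery were each below 10 CPM in every library. The means of the 2-cell activation and maternal marker sums were higher in delipidated embryos, with overlap between the groups. The means of the leukocyte and of the cumulus and granulosa marker sums were lower, also with overlap. For leukocytes they were 27.2 ± 9.52 and 17.9 ± 5.74 CPM (SD, n = 3 each). For cumulus and granulosa cells they were 43.7 ± 33.7 and 21.0 ± 11.2 CPM (SD, n = 3 each). The last control mean rested largely on Control 3 at 82.3 CPM, of which Cyp11a1 alone was 49.6 CPM. The paper states that cumulus cells were removed with hyaluronidase. Control 1 and Control 3 were the highest libraries both for the leukocyte markers and for the antigen presentation list, and the part of these markers in the level of Irf1 and its list was not tested.

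Promoter sequences from RefSeq (GRCm38.p6, 250 bases before to 50 after the start) were matched for 36 of the 43 genes in classes. The core of the antioxidant response element to which Nfe2l1 binds, TGACNNNGC on either strand, was in 6 of the 36 (16.7%), beside 14.0% of 27025 promoters. The CCAAT box, on either strand, was in 14 (38.9%), beside 41.1% of all promoters. The matches to the response element are shown since this is the site by which subunit genes are known to be raised together, with the motif in capitals and up to 10 flanking bases on each side, 5′ to 3′ on the strand that holds the match. A match is not evidence of binding in these embryos.
Psmb5: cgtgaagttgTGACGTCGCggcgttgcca
Psmb6: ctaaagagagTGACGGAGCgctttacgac
Psmc6: gagcaatgccTGACTTAGCtactggctgg
Psmd12: ggggcaaatgTGACACAGCaga
Psmd9: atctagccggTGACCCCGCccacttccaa
Psme4: gctcttctggTGACGCTGCagccgcagcg

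The motifs lie at chr14:54618034-54618042 (minus strand) for Psmb5, chr11:70525348-70525356 (plus) for Psmb6, chr14:45329597-45329605 (minus) for Psmc6, chr11:107479281-107479289 (minus) for Psmd12, chr5:123228159-123228167 (plus) for Psmd9 and chr11:30771768-30771776 (minus) for Psme4. The genes with a match had log2 fold changes of -0.28 (Psmb5), 0.41 (Psmb6), 0.24 (Psmc6), -0.21 (Psmd12), 0.036 (Psmd9) and -0.047 (Psme4), with both signs among them and no unadjusted edgeR p under 0.05.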

How the data were processed

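The authors deposited raw counts per exonic part (exons split where transcripts differ) for 6 libraries made with a stranded total RNA kit with depletion of ribosomal RNA. Their notes name bcl2fastq 2.20, Trimmomatic 0.36, STAR 2.5.2b, featureCounts and mm10. The 425461 parts were summed per Ensembl identifier. Of 33309 parts under joined identifiers of overlapping genes, 27968 lay in exons of 1 gene and were given to that gene, with the rest dropped. A read spanning several parts is counted in each, so sums exceed reads and their precision appears too high. Symbols were found for 49384 of 49644 identifiers.

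The comparison used edgeR 4.0.16 under R 4.3.3 (filterByExpr, min.count 10, min.total.count 15, TMM, quasi-likelihood test without covariates, Benjamini-Hochberg over all 16020 genes). The SE is the log2 fold change divided by the root of the F statistic. CPM used the counts of tested genes times the TMM factor. The methods were tested on simulated data. Alternatives were DESeq2 1.42.0 without a filter, its size factors in edgeR, CPM on total counts, other filters, other treatment of joined and opposite parts, the part with the most counts, another length, the replicate number as a block and each library left out.

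Members and lists were chosen with earlier results of these data known. Named genes are the 6 catalytic genes, the 2 members with the smallest p-value in each class, members with an unadjusted p under 0.05, the highest and lowest per kb of core and regulatory particle, and from each related list those under 0.05 or otherwise the 2 with the smallest p. Other genes named were chosen after their values were seen. A gene that this rule names among the bound regulators is not reported here.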

Additional observations from a re-analysis of the deposited data

How the results depend on the processing

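No proteasome gene was called by edgeR or DESeq2 under any alternative run, and the smallest adjusted p-value over them was 0.369 (Psma1, DESeq2). With DESeq2 on unfiltered counts, 9 genes of all genes were called higher and 40 lower. Of the 30850 genes tested there, 437 (1.42%) were higher and 904 (2.93%) lower at an unadjusted p under 0.05. At that level 2 proteasome genes were higher, Psme3 and Psmb11, and 2 related genes were lower. Psmb11 had 2, 0 and 0 counts in control and was tested there only because no filter was used. Without overlap, 2 proteasome genes were higher (2.40% of all genes). In edgeR with no filter, on 30967 genes, the numbers were 5 and 25 called, and 379 (1.22%) and 835 (2.70%) at an unadjusted p under 0.05. At that level 0 proteasome genes were higher and 2 related genes lower, with 2 proteasome genes higher without overlap (2.29% of all genes). On the part with the most counts, 0 proteasome genes were higher (1.15% of all genes) and 0 lower (1.32%, 176 genes) at an unadjusted p under 0.05. Without overlap, 2 were higher (4.83% of all genes) and 0 lower (4.13%). The log2 ratio of summed chaperone CPM was 0.31 on that part. On summed parts the chaperones averaged 92.9 CPM in control and 92.3 CPM in delipidated libraries. Also on the part with the most counts, the log2 fold change of Psmc2 was 0.36. The median level there was 44.1 CPM per kb in the core and 45.4 in the regulatory particle. With 150 bases added per part these medians were 7.11 and 9.35, by construction. On the part with the most counts the log2 fold change also moved by over 1.5 times for Adrm1 (-0.047), Bach1 (-0.76), Faf2 (0.28), Irf1 (-0.37), Pomp (0.59), Psma4 (0.24), Psmb5 (-0.013), Psmb10 (-0.41), Psmd4 (0.14), Psmd5 (-0.18), Psmd8 (0.63), Psme3 (0.14), Psme4 (-0.21), Ubqln4 (0.0091) and Ufd1 (-0.35).

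Replicate numbers did not pair the samples (correlations of the deviations -0.0836, 0.0698 and 0.0428). The fit with the replicate block had 0 proteasome genes higher, 1 lower and 2 related genes lower at an unadjusted p under 0.05. Beside these, 154 of all genes (0.961%) were higher and 252 (1.57%) lower, and 0 of all genes were called.

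Leaving out 1 library gave 155 to 300 of all genes higher (0.890% to 1.70%) and 219 to 693 lower (1.26% to 3.92%) at an unadjusted p under 0.05. At that level 0 to 2 proteasome genes were higher and 0 to 2 lower, and 0 to 1 related genes higher and 0 to 4 lower. Psmb11, near 0 in control, was among the higher ones without Control 1 and without Delipidated 3. Without overlap, 2 to 5 proteasome genes were higher (6.62% to 9.55% of all genes) and 2 to 5 lower (9.21% to 11.5%). The median log2 fold change of the proteasome genes ranged from -0.046 to 0.11, the latter without Control 2. The difference in the Psmb10 share ranged from -16.2 to 6.92 percentage points (6.92 without Control 1, 1.63 without Delipidated 3). On the part with the most counts that difference was -1.24 percentage points, beside -6.36 on summed parts. For the Psmb9 share it was -2.78 on that part, beside -0.55 on summed parts. Log2 fold changes changed sign without Delipidated 1 for Pomp (-0.024 in a range up to 0.64), Psma4 (-0.26, up to 0.36) and Psmd5 (0.10, down to -0.24), without Delipidated 3 for Psmb5 (0.083), Psmb6 (-0.020, up to 0.71), Psmc2 (0.16, down to -0.40) and Psmd7 (0.046, down to -0.38), without Control 1 for Psmb10 (0.40, down to -1.69) and Psme4 (0.044, down to -0.14), and without Control 2 for Psmb5 (0.44, down to -0.70) and Psmc2 (0.080). The causes were not tested. Giving shared parts to the only protein-coding gene, chosen after seeing the data, changed none of these counts by more than 1.5 times.

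Each group held 3 pools, and the common biological coefficient of variation over all genes was 0.663. The log2 fold change of Psme3, 0.44, also lay below the threshold of 1. Genes with few counts, such as Psmb9, Psme1 and Psmd10, had reads on few parts in some libraries, and near-identical copies cannot be separated from the unique reads counted.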

Other observations

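The 4 pseudogenes left out by symbol had few counts. Psmb6-ps had 1, 1 and 0 counts in control and 0, 0 and 20 in delipidated libraries, Psmb6-ps2 had 4 counts in Control 1 and 0 in the other libraries, and Psmb5-ps and Psmb7-ps2 were at 0 in all 6. The genes outside the classes gave 125, 121 and 144 CPM in control and 115, 158 and 93.3 CPM in delipidated libraries for Psmc3ip, and at most 4 counts in any library for Psme2b.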
